A study of Danio rerio with 8 samples.

Results

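Genes whose products join endothelial cells or signal from their surface were followed through 8 RNA sequencing libraries of sorted zebrafish vessel cells. The 10 genes were cdh5, pecam1, esama, cldn5b, tie1, tek, egfl7, clec14a, plvapa and plvapb, chosen by their Ensembl names from the 32520 genes of the counts table. Of the 10 names, 9 matched 1 identifier each (pecam1 as pecam1a and esama as ESAM). For cldn5b the name table gives 2 identifiers, ENSDARG00000014059 and ENSDARG00000043716, both with the symbol CLDN5, and which of them is cldn5b was not settled. Both were therefore followed, which makes 11 identifiers, and all 11 had enough reads to be tested.

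The cells came from embryos at 3 dpf (days post fertilisation) that carried the endothelial reporter Tg(fli1a:nEGFP) together with Tg(5.2lyve1b:DsRed), a reporter of venous and lymphatic vessels. The sort took the doubly labelled cells as venous and lymphatic endothelium. There were 4 libraries from ddx21 mutants and 4 from embryos labelled as siblings, numbered 1 to 4 in each group. The labels give neither the allele nor the genotype of the siblings, and do not say how many embryos went into a sort or what a replicate number marks. Ddx21 is a nucleolar RNA helicase that takes part in making ribosomes.

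Endothelial cells seal to one another through cadherin-based adherens junctions and claudin-based tight junctions, and the tightness of these contacts sets how leaky a vessel is. Tie1 and Tek (Tie2) are receptor tyrosine kinases found mostly on endothelium. Tek binds angiopoietins, and Tie1, which lacks a well-established angiopoietin ligand of its own, can pair with Tek. In zebrafish tie1 is needed for normal vessel and lymphatic development, whereas loss of tek is tolerated. Plvap proteins form the diaphragms that span the openings of fenestrated endothelium.

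The deposited counts held 38459219 to 51173007 reads per library, and 18051 (mutant 4) to 25329 (sibling 1) genes had at least 1 read. The members were deeply covered, from 488 reads for CLDN5 (ENSDARG00000043716) to 181262 for plvapb, so counting error was small beside the spread between libraries. Levels below are CPM, read counts relative to the library total, after TMM scaling, a correction for differences in RNA composition. Levels of different genes are not compared, since they are not per length. The genes behind the reporters were present in all 8 libraries, with fli1a at 511 to 1477 CPM and lyve1b at 443 to 808 CPM. The epidermal keratin gene krt4 was present too, at 1588 to 54842 CPM. The mutated gene ddx21 measured 245, 364, 337 and 301 CPM in siblings 1 to 4 and 233, 266, 170 and 217 CPM in mutants 1 to 4. It was present in every library and its groups overlapped, though at each number the mutant was lower than the sibling. The means were 312 CPM in siblings and 221 CPM in mutants (log2 fold change -0.50, SE 0.21, edgeR unadjusted p = 0.039). It did not pass the adjustment over all tested genes.

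Of the adherens junction genes, cdh5 encodes VE-cadherin, the cadherin of endothelial contacts. It measured 258, 196, 551 and 596 CPM in siblings 1 to 4 and 161, 360, 415 and 602 CPM in mutants 1 to 4. The 4 lowest values were those of libraries 1 and 2 of both genotypes, and the 4 highest those of libraries 3 and 4. Mutant 2 stood highest within the low set, and mutants and siblings overlapped over most of the range.

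The immunoglobulin-family gene pecam1 encodes CD31, a homophilic adhesion molecule of endothelial contacts. Its levels were 357, 241, 645 and 836 CPM in siblings 1 to 4 and 255, 271, 503 and 754 CPM in mutants 1 to 4. The related gene esama encodes an adhesion molecule of endothelial tight junctions, and it measured 152, 127, 289 and 185 CPM in siblings and 130.0, 153, 285 and 254 CPM in mutants. In both genes libraries 3 and 4 lay above libraries 1 and 2. For esama sibling 4 was the lowest of the upper set.

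Claudin-5 is the main claudin of endothelial tight junctions in mammals. The CLDN5 gene ENSDARG00000014059 measured 182, 199.9, 318 and 440 CPM in siblings 1 to 4 and 135, 288, 441 and 485 CPM in mutants 1 to 4. The CLDN5 gene ENSDARG00000043716 was at 15.0, 31.1, 66.4 and 63.6 CPM in siblings and 11.7, 39.3, 53.5 and 55.0 CPM in mutants. Both identifiers separated libraries 1 and 2 from libraries 3 and 4, so that the open question of which is cldn5b does not change this division for the member. Mutant 1 was the lowest library for each.

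For the Tie receptors, tie1 measured 379, 294, 566 and 533 CPM in siblings 1 to 4 and 290.3, 329.8, 459 and 666 CPM in mutants 1 to 4. For tek the levels were 117, 118, 222 and 231 CPM in siblings and 60.8, 117, 245 and 226 CPM in mutants. The tek values formed 2 compact sets apart from mutant 1, which held the lowest level, and libraries 3 and 4 spanned only 222 to 245 CPM across both genotypes. The tie1 values were spread more evenly, with mutant 4 the highest. RefSeq (assembly GRCz12tu) lists an antisense RNA, lnc.tie1, that overlaps tie1, and since the strand setting of the counting is not given, reads of tie1 and lnc.tie1 cannot be told apart. In all, 6 of the 10 members overlap another RefSeq gene, among them clec14a with sec23a and egfl7 with mir126b.

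Of the surface and secreted proteins, clec14a encodes a C-type lectin domain receptor of endothelium that binds the matrix protein multimerin-2 in mammals. It measured 631, 528, 1368 and 1443 CPM in siblings 1 to 4 and 420.4, 743, 1254 and 1273 CPM in mutants 1 to 4. The gene egfl7 encodes a secreted protein that endothelial cells deposit around forming vessels, and it was at 373, 479, 838 and 812 CPM in siblings and 287, 453, 802 and 740.0 CPM in mutants. Both genes had a wide gap between the sets: no library lay between 743 and 1254 CPM for clec14a, or between 479 and 740.0 CPM for egfl7.

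Of the diaphragm genes, plvapa measured 167, 178, 541 and 418 CPM in siblings 1 to 4 and 109, 197, 421 and 376 CPM in mutants 1 to 4. Its paralogue plvapb was at 1300.2, 1205, 3021 and 2869.8 CPM in siblings and 1093, 1651, 3457 and 3152 CPM in mutants. For plvapb the mutant was the higher library at numbers 2, 3 and 4, whereas for plvapa it was the lower at numbers 1, 3 and 4. The libraries again fell into the same low and high sets.

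**Figure D1:**
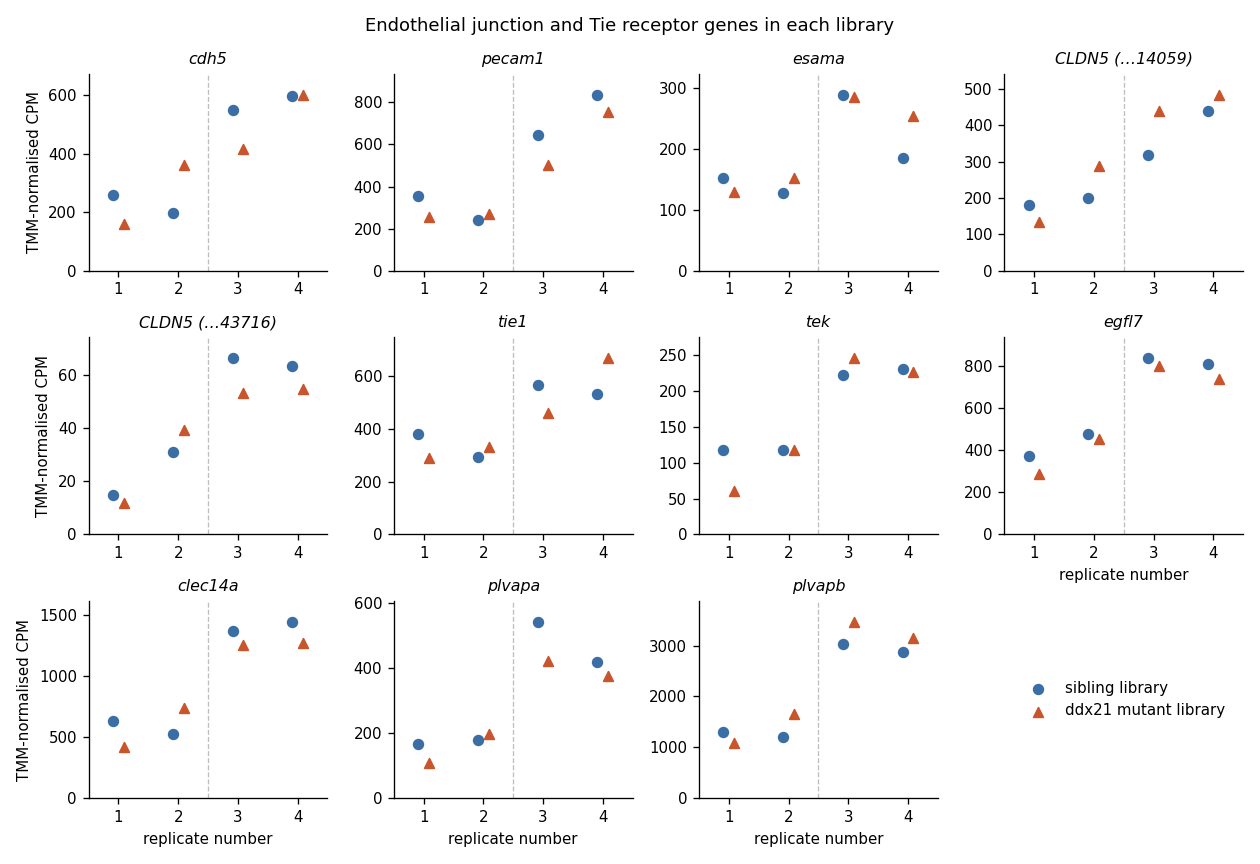
Level of each of the 11 identifiers (TMM-normalised CPM, linear axes from 0) against the replicate number, with circles for sibling and triangles for ddx21 mutant libraries and a dashed line between numbers 2 and 3. In all 11 panels the 4 libraries numbered 3 or 4 lie above the 4 numbered 1 or 2, while circles and triangles overlap; when scaled to other pan-endothelial genes only 2 identifiers keep this gap and tie1 no longer differs (log2 -0.01).

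All 10 members, on all 11 identifiers, were higher in every library numbered 3 or 4 than in every library numbered 1 or 2, under TMM scaling, under size factors and under plain library totals. Over all 18549 tested genes 5.42% showed this order and 6.44% the opposite one. The median difference of the members between libraries 3 and 4 and libraries 1 and 2 was 1.20 on the log2(CPM + 1) scale, or 2.30-fold, against -0.05 for all tested genes. The order by replicate number was proposed with these values known and the labels attach no meaning to a number, so it is described here and was not tested.

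Members differed in how far apart their sets lay. The difference was largest for plvapa (log2 1.45), from a mean of 163 ± 37.7 CPM in libraries 1 and 2 to 439 ± 70.7 CPM in libraries 3 and 4 (SD, n = 4 each). CLDN5 (ENSDARG00000043716; 1.41), pecam1 (1.27), plvapb (1.26), clec14a (1.23), cdh5 (1.20) and tek (1.20) followed. The other CLDN5 gene (1.1) and egfl7 (1.03) came next. It was smallest for esama (0.83), at 141 ± 13.9 and 253 ± 48.1 CPM, and for tie1 (0.78), at 323 ± 41.1 and 556 ± 86.0 CPM. The distance from the highest library of the low set to the lowest of the high set ran from 0.14 (CLDN5, ENSDARG00000014059) to 0.93 (plvapa) on the same log2 scale, with tek at 0.91.

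The order within each genotype follows from the order over all libraries, so the counts here add no support to it. Only the size of the difference in each genotype is added. In siblings alone 11 of 11 identifiers had libraries 3 and 4 above libraries 1 and 2, with a median difference of 1.23, where 18.7% of all tested genes did. In mutants alone it was again 11 of 11, with a median of 1.22, where 18.9% of all tested genes did. The most uneven member was tek, at 0.94 in siblings and 1.47 in mutants, the low value of mutant 1 entering the second. For cdh5 the values were 1.35 in siblings and 1.05 in mutants.

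Genes on 5 other lists of endothelial and junction genes moved in the same direction only in part. Of 62 tested genes on these lists, 30 had every library 3 and 4 above every library 1 and 2 (median 0.77). The lists are not limited to genes of endothelium. The 2 genes with the opposite order, oclna (-2.57) and f11r.1 (-1.89), were on the tight junction list. Of 29 other pan-endothelial genes 19 had every library 3 and 4 above every library 1 and 2, with a median difference of 0.82. Of 10 genes of the endothelial surface and caveolae 7 did (median 0.99), among them the multimerin gene mmrn2b (0.94) and the endothelial receptor gene ecscr (1.15), while the caveolin genes cav1 (0.21) and cav2 (0.51) did not. Of 8 tight junction genes 3 did (median 0.47), with the junctional adhesion molecule gene jam2a at 1.19. Among the pan-endothelial genes that did not separate were flt4 (0.46), the Vegfc receptor gene, the reporter gene lyve1b (0.37) and stab2 (-0.06), a scavenger receptor gene of veins and lymphatics.

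Adherens junction partners were covered only in part, since 5 of the 14 symbols on that list matched a single identifier. None of these 5 had libraries 3 and 4 above libraries 1 and 2, and their median difference was -0.19. The afadin gene AFDN was left out of the list because the name table does not say which of the paralogues afdna and afdnb it is. It did separate the sets (0.75), at 22.9 to 31.5 CPM in libraries 1 and 2 and 40.2 to 51.0 CPM in libraries 3 and 4. For the catenin genes, whose proteins tie cadherins to actin, the difference was 0.20 for ctnnb1, -0.04 for ctnnd1 and -0.54 for ctnna1. Catenins serve cadherins of many cell types. The epithelial tight junction gene oclna, which encodes occludin, lay the other way from the members (-2.57).

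Of 10 tested genes around the Tie receptors 1 separated the sets upwards, ptprb, which encodes the phosphatase VE-PTP that acts on Tek and VE-cadherin. It measured 221, 146, 408 and 405 CPM in siblings 1 to 4 and 131, 235, 289 and 394 CPM in mutants 1 to 4. The ligand gene angpt2a did not separate the sets (0.45). The gene svep1, whose product acts with Tie1 in zebrafish lymphatic development, stayed at or under 4.18 CPM and had no read in 2 libraries.

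Among markers of other cell types, most epidermal ones and part of the mural and fibroblast ones moved with the same division of the libraries. Of 13 epidermal markers 11 had every library 3 and 4 below every library 1 and 2 (median -2.99), and their summed level was 32134 to 86174 CPM in libraries 1 and 2 and 2432 to 11956 CPM in libraries 3 and 4. The keratin genes krt4 and krt5 differed by -3.08 and -3.67, and cldne was the only epidermal marker without a read in at least 1 library. Of 10 mural and fibroblast markers 4 were lower without overlap and 1 higher (median -0.55), with the collagen genes col1a1a at -2.21 and col1a2 at -2.54. The higher one was rgs5a (1.44), and acta2 (1.33) was higher with overlap. The sum of the 10 markers was 1839.8 to 3873 CPM in libraries 1 and 2 and 1115 to 1364 CPM in libraries 3 and 4. In mutant 1, col1a1a and col1a2 held 1611 and 1637 of the 3873 CPM. In libraries 3 and 4 rgs5a was the largest part, at 545 to 903 CPM. There col1a1a was at 127 to 249 CPM and col1a2 at 116 to 232 CPM. The sum therefore mixes falling collagen genes with a rising rgs5a. The part of these cell types in the members' difference was not tested. In such bulk samples fewer endothelial cells and less of a transcript per endothelial cell cannot be told apart.

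The erythroid sum lay on the members' side, at 217 to 406 CPM in libraries 1 and 2 and 493 to 948 CPM in libraries 3 and 4. In sibling 3 the globin genes hbae1.1 and hbae3 held 330 and 526 of the 948 CPM, so the sum mostly follows these genes. The median over 6 tested genes was 0.64. Only hbae3 (1.46) separated the sets gene by gene, and the other genes ran from -0.22 (hemgn) to 0.87 (hbae1.1). The liver and yolk sum lay the other way, at 1628 to 5539 CPM in libraries 1 and 2 and 379.7 to 1611 CPM in libraries 3 and 4. Of the 14 genes on that list only the retinol-binding protein gene rbp4 (-2.93) was lower without overlap. It held 1552 of the 1628 CPM in mutant 1 and 2545 of the 2711 CPM in mutant 2, so there the sum mostly follows rbp4. In siblings 1 and 2 it held 1254 of 3791 and 2266 of 5539 CPM. The median over the 14 genes was 0.09, with -1.16 in siblings alone and 0.86 in mutants alone. The medians of the other lists were 0.19 for leukocyte (9 tested), -0.09 for thrombocyte (5), -0.20 for skeletal muscle (7) and -0.35 for nerve (7). In siblings alone they were 0.12 for leukocyte, -0.40 for thrombocyte, 0.25 for skeletal muscle and -0.86 for nerve. In mutants alone they were 0.34, 0.09, -0.68 and 0.15 in the same order. Thrombocytes can also make Pecam1, and their defining gene itga2b was present in every library (-0.09). The part of blood, liver or thrombocyte transcripts in the members' values was not tested. Of 15 matched leukocyte markers 9 had no read in at least 1 library.

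**Figure D2:**
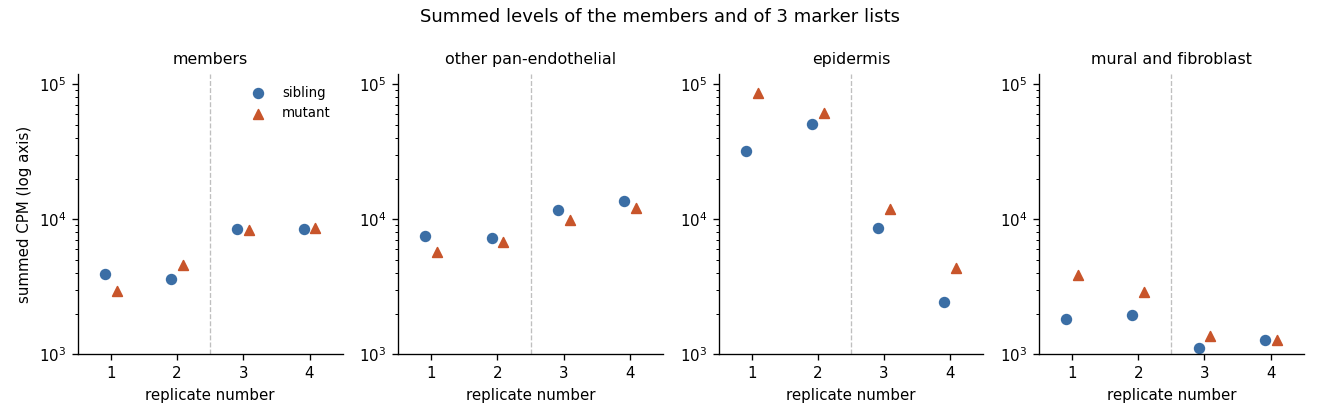
Summed CPM (log axis) in each library against the replicate number, for the 11 member identifiers, 29 other pan-endothelial genes, 13 epidermal markers and 10 mural and fibroblast markers; circles are siblings and triangles mutants. The member sum is 2953 to 4602 CPM in libraries 1 and 2 and 8336 to 8583 CPM in libraries 3 and 4, while the epidermal sum lies the other way.

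Scaling each library to the summed counts of the 29 other pan-endothelial genes, a choice made after the values had been seen, moved the median of all tested genes from -0.05 to -0.64. The members' median difference was then 0.42. Without overlap there were 2 identifiers, pecam1 (0.48) and plvapa (0.66). The CLDN5 genes ENSDARG00000043716 (0.65) and ENSDARG00000014059 (0.31), plvapb (0.47), clec14a (0.44), tek (0.42), cdh5 (0.41) and egfl7 (0.24) kept a positive difference with overlapping sets. For esama (0.04) and tie1 (-0.01) no difference from the other endothelial genes was left on this scale.

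Between mutants and siblings no member passed. edgeR's quasi-likelihood test, with the Benjamini-Hochberg adjustment over all tested genes, called 0 of 18549 genes (0.0%), and 556 (3.0%) had an unadjusted p under 0.05. DESeq2 called 62 genes (0.334%), none of them a member. The members' log2 fold changes, mutant over sibling, ran from -0.24 to 0.24 with a median of -0.09, beside 0.0 for all tested genes, and 8 of 11 lay below 0, as did 49.8% of all tested genes. No identifier had an unadjusted p under 0.05 (range 0.57 to 0.95) and none kept the genotypes apart, where 1.42% of tested genes had every mutant above and 1.83% every mutant below every sibling. The libraries thus showed no difference that could be told from the spread within a genotype. With standard errors of 0.31 to 0.55 this does not show that the levels were alike. These errors include the shared difference between replicate numbers. With the replicate number as a block in edgeR they were 0.12 (egfl7) to 0.26 (cdh5), and the smallest unadjusted p was 0.16 (plvapa). That fit does not show alike levels either.

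The 4 siblings averaged 400.4 ± 203 CPM of cdh5 and the 4 mutants 385 ± 181 CPM (± SD; log2 -0.06 with SE 0.45, edgeR adjusted p = 1.0). For tie1 the means were 443 ± 128 and 436 ± 169 CPM (log2 -0.02, SE 0.31, edgeR adjusted p = 1.0), and for tek 172 ± 63.1 and 162 ± 88.0 CPM (log2 -0.09, SE 0.43, edgeR adjusted p = 1.0). The most negative value was that of plvapa (log2 -0.24, SE 0.49) and the most positive that of CLDN5 (ENSDARG00000014059; log2 0.24, SE 0.41). The paralogue plvapb stood at 0.16 (SE 0.43).

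The standard errors of single members hold the spread between libraries that the members share, so ratios between members, which no scaling of a library moves, were compared as well, a choice made after the values had been seen. The ratio of plvapb to plvapa was 7.78, 6.79, 5.59 and 6.87 in siblings 1 to 4 and 10.02, 8.4, 8.2 and 8.38 in mutants 1 to 4. Every mutant lay above every sibling, by a mean log2 difference of 0.38 (siblings 2.75 ± 0.20, mutants 3.12 ± 0.13; mean ± SD of 4 libraries). At the same number the mutant exceeded the sibling by 0.36, 0.31, 0.55 and 0.29. Over all tested genes 0.205% had a ratio to plvapa that was higher in every mutant than in every sibling. This share covers only that direction and only plvapa as the reference, whereas the pair was picked from 55. It is therefore not a measure of how rare the result is. Of 55 pairs of identifiers 3 kept the genotypes apart, and each of the 3 held plvapb, with plvapa, tek or egfl7 as the other gene. Sharing plvapb, the 3 pairs are not independent. The same count over pairs of all tested genes was not taken, so 3 of 55 cannot be set against a background. For each of these pairs the two-sided exact permutation test gave p = 0.0286, the smallest that 4 libraries against 4 allow. After the Benjamini-Hochberg adjustment over the 55 pairs it was 0.524. With this floor a pair could pass the adjustment only if many of the 55 pairs reached it together. The test could therefore hardly have passed any pair, and no conclusion is drawn from it.

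**Figure D3:**
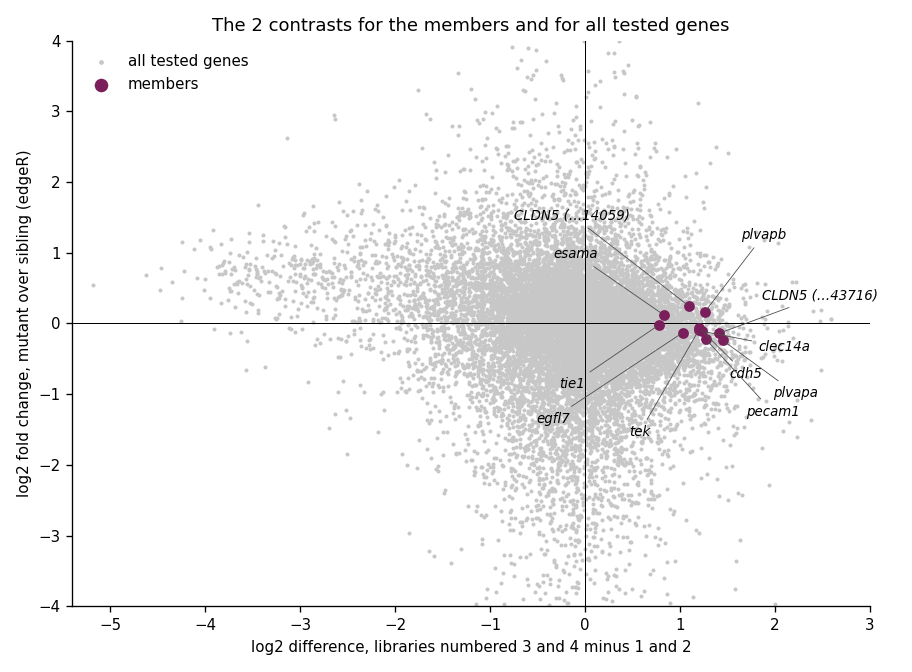
Log2 fold change, mutant over sibling (edgeR, vertical), against the log2(CPM + 1) difference of libraries 3 and 4 minus libraries 1 and 2 (horizontal), for all tested genes (grey) and the 11 member identifiers (purple, labelled); 126 of 18549 genes lie outside the vertical axis, which runs from -4 to 4. The members sit between 0.78 and 1.45 on the horizontal and between -0.24 and 0.24 on the vertical axis; scaled to other pan-endothelial genes tie1 would stand at -0.01 on the horizontal axis.

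Comparing each mutant with the sibling of the same number gave a different picture at each number. At number 1 all 11 identifiers were lower in the mutant, with log2 differences from -0.93 (tek) to -0.23 (esama) and a median of -0.43, where 54.2% of all tested genes were lower. At number 2 the mutant was higher for 9 of 11 (median 0.26), where 49.0% of all tested genes were lower, with cdh5 at 0.88, and lower only for tek (-0.01) and egfl7 (-0.08). At number 3 it was lower for 8 of 11 (median -0.13) and at number 4 for 6 of 11 (median -0.03), where 49.0% and 47.4% of all tested genes were lower. Only egfl7 was lower in the mutant at all 4 numbers, by 0.38, 0.08, 0.06 and 0.13 on the log2 scale.

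Averaged within libraries 1 and 2 the members' median difference between mutants and siblings was -0.05, and within libraries 3 and 4 it was -0.10. Mutant 1 was the lowest of the 8 libraries for 9 of 11 identifiers, and for 23 of 29 other pan-endothelial genes, while 20.1% of all tested genes were lowest there. Of those 29 genes 26 were lower in the mutant at number 1, with a median of -0.51. Mutant 1 also held the highest summed level of epidermal markers, 86174 CPM. Of this krt4 held 54842 and krt5 22523 CPM, so the sum mostly follows these genes. Of the 13 epidermal markers 5 were highest in mutant 1. Sibling 2 was the lowest library for pecam1 and esama. The part of the epidermal signal in the low values of mutant 1 was not tested.

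**Figure D4:**
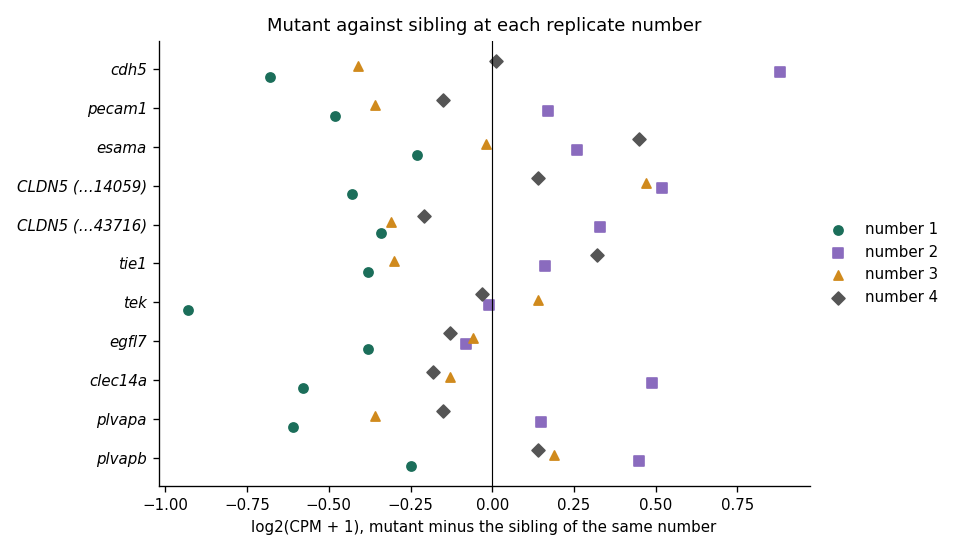
Difference in log2(CPM + 1) between the mutant and the sibling library of the same number for each of the 11 identifiers, with 1 symbol per number. All points of number 1 lie left of 0, from -0.93 to -0.23, and most of number 2 lie right of it, up to 0.88 for cdh5.

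Genes of the surrounding pathways likewise gave no call between the genotypes. None of 62 tested genes on the 5 other endothelial lists passed in edgeR (adjusted p = 1.0 for each), and 1 had an unadjusted p under 0.05, beside 3.0% of all tested genes. Of the other cell types, 13 of 14 liver and yolk markers had log2 fold changes below 0, with a median of -3.13, beside 49.8% of all tested genes below 0. Of the 14, 12 did not overlap between the genotypes. Over all tested genes 1.42% had every mutant above and 1.83% every mutant below every sibling. Of the 14 markers 11 had an unadjusted p under 0.05 in edgeR, though none passed its adjustment. Their summed level overlapped, at 1245 to 5539 CPM in siblings and 379.7 to 2711 CPM in mutants, and rbp4 alone held 1552 of the 1628 CPM in mutant 1. The median log2 fold change was -0.18 for the Tie pathway genes, -0.10 for tight junction, 0.22 for adherens junction, -0.05 for surface and caveola and -0.24 for other pan-endothelial genes.

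Likeness to the members was measured as the root mean square difference of centred log2(CPM + 1) over the 8 libraries, among 11138 other genes with a symbol and a mean of at least 5 CPM. The genes closest to the members' mean pattern were ARL15 (ENSDARG00000057995; 0.081), EPAS1 (ENSDARG00000057671; 0.083), krt18a.1 (0.098), emid1 (0.098) and EPB41L4A (0.101). EPAS1 encodes the hypoxia-inducible factor HIF-2 alpha, which is abundant in endothelium in mammals. Of the members themselves clec14a lay closest to the mean (0.086), and CLDN5 (ENSDARG00000043716) farthest from it (0.377).

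For cdh5 the nearest gene was ptprb (0.135), followed by HSPB1 (0.144) and tmem176l.1 (0.168). For tie1 the nearest were AFDN (0.089), which encodes afadin, a scaffold of adherens junctions, then myct1a (0.093) and USP33 (0.106). For plvapb they were si:ch211-156j16.1 (0.077), CD81 (ENSDARG00000022437; 0.088), a tetraspanin gene, and mfng (0.102), a modifier of Notch receptors. These likenesses rest on 8 libraries that share the division between numbers 1 and 2 and numbers 3 and 4.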

How the data were processed

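RNA sequencing was measured in 4 ddx21 mutant and 4 sibling libraries. The authors deposited raw counts per Ensembl gene (whole numbers), and the submitters' processing notes name build GRCz11 and, as tools, featureCounts, Subread 2.0.0, edgeR and FastQC. Settings: not given in the sources used here. A second deposited table of log2 values, labelled as normalised and batch-corrected, equalled log2(CPM + 1) of those counts in 260160 of 260160 values (tolerance 1e-09), and entered only 1 alternative.

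Counts were filtered (filterByExpr, minimum count 10, minimum total 15; 18549 genes kept), TMM-scaled and fitted with edgeR 4.0.16 (quasi-likelihood, robust, genotype only) in R 4.3.3, with adjusted p under 0.05 as the threshold. Alternatives used DESeq2 1.42.0 and limma 3.58.1. The fit was tested on simulated data. The median trended dispersion was 0.61. Replicates of a group differed by more than counting error (chi-square of 112 to 852 per degree of freedom). Nothing in the labels says that they came from separate clutches, so the p-values reflect only how these libraries vary, which can be partly technical.

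The 10 members and 13 marker lists were chosen with earlier results of these data known. Of 201 list symbols 150 matched 1 identifier through a name table or RefSeq synonyms; the rest were left out, apart from both CLDN5 identifiers. Named genes were the members, ddx21, the reporters' genes, the up to 4 genes of smallest p per endothelial list, the 2 of highest mean per other list and the most alike genes. Added once their values were known were cldne, rgs5a, acta2, the paralogues and the ratios between members (log2 of TMM-scaled CPM, two-sided exact permutation over 70 splits). A further gene named by this rule is not reported here.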

Additional observations from a re-analysis of the deposited data

Results flagged for a closer look

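In the ratio of plvapb to plvapa mutant 1, at 10.02, stood apart from the other mutants, which lay at 8.2 to 8.4. Of 24 groups of 4 libraries examined for such a library no other had one, and chance marks about 1 in 20 groups. Where a group holds libraries of the low and the high set alike, the check can hardly mark a single one. No conclusion is drawn from the absence of others.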

How the results depend on the processing

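No member was called, or had an unadjusted p under 0.05, in any of 17 alternatives, while the signs of the small fold changes between mutants and siblings varied. Library totals alone gave 0.01 for cdh5 and 0.03 for tie1. Without mutants 1 and 4 and sibling 4 together the values were 0.22 for cdh5, 0.31 for CLDN5 (ENSDARG00000043716), 0.26 for tek, 0.16 for egfl7, 0.25 for clec14a and 0.07 for plvapa. Scaled to other pan-endothelial genes, which moved the median of all tested genes to 0.23, they were 0.19 for cdh5, 0.01 for pecam1, 0.10 for the same CLDN5 gene, 0.18 for tie1, 0.08 for tek, 0.07 for egfl7 and 0.13 for clec14a. Leaving out single libraries gave -0.36 to 0.20 for cdh5, -0.60 to 0.11 for pecam1, -0.07 to 0.40 for esama, -0.43 to 0.16 for that CLDN5 gene, -0.30 to 0.14 for tie1, -0.35 to 0.19 for tek, -0.34 to 0.09 for egfl7, -0.31 to 0.14 for clec14a, -0.52 to 0.12 for plvapa and -0.09 to 0.39 for plvapb. Where libraries were left out, the genotypes no longer held equal numbers of libraries from the low and the high set. Those values are therefore not balanced comparisons of the genotypes. The cause of the changes of sign was not tested.

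Genes called over the whole table numbered 1 without the filter, 2 with limma on the deposited values, 62 with DESeq2 and 526 with DESeq2 and the replicate block, against 0 in edgeR and 0 without each library in turn. Libraries of the same number correlated at 0.0951 to 0.272 in their deviations from the group means, and 7 of 8 libraries were closest to their own number. The main fit did not take the numbers as pairs, since no batch is named in the labels. In this check 1 of the 4 pairs lay at or below a threshold of 0.1. That does not show that the libraries were unpaired, and the replicate block was fitted as an alternative. With the replicate block edgeR called 0 genes (1086 at an unadjusted p under 0.05), and the members ran from -0.24 to 0.18.

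The members' median difference between libraries 3 and 4 and libraries 1 and 2 was 1.02 to 1.29 without single libraries, with 11 identifiers separated each time, and changed by less than the spread between libraries in 15 of 16 alternatives. The exception was the pan-endothelial scaling (0.42, with 2 identifiers separated, pecam1 and plvapa). Leaving out a single library can hardly undo a complete separation, or shift the mean of 4 libraries by the spread between them. The single-library alternatives were therefore a weak check.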

Other observations

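The paralogue of esama, esamb, had no read in 6 of 8 libraries and at most 0.27 CPM. The paralogue of pecam1a, pecam1b, was counted in every library at 16.1 to 159 CPM. Whether reads shared by such paralogues were split in the counting was not tested.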
